A study of Mus musculus with 40 samples.

Results

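Blood neutrophils and blood monocytes of mice with colon tumors were compared through the 4 neutrophil and 4 monocyte libraries that the sample labels assign to these groups, 8 of the 40 libraries of the series. The series sequenced RNA from cells sorted from colon tumors, blood and healthy colon, in 10 groups of 4. Both groups came from Cdx2CreERT2 - Apc fl/fl mice on a mixed background (C57Bl6/Sv129 in the labels, whose last number counts up from sample to sample), in which tamoxifen (25 mg/kg, 1 injection at an age of 8 to 10 weeks in the labels and over a wider range in the study's methods) activates a Cre recombinase driven by Cdx2, a gene of the intestinal epithelium, and removes the tumor suppressor Apc. Blood cells are thus not the cells in which recombination was intended. Neutrophils had been gated as CD45+ EpCAM- CD11b+ MHCII- Ly6C-low Ly6G+ cells and monocytes as CD45+ EpCAM- CD11b+ MHCII- Ly6C-high Ly6G- cells. Healthy animals, used for a side comparison, were C57Bl6 mice without transgene or tamoxifen, with 4 blood neutrophil and 4 blood monocyte libraries. The title of blood neutrophil replicate 3 names 2 animals, as do the titles of 3 healthy monocyte libraries, so these were pools.

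Neutrophils build their granules in the bone marrow in a fixed order: azurophil granules with myeloperoxidase and elastase in promyelocytes, specific granules with lactoferrin and lipocalin 2 in myelocytes, and gelatinase granules in band cells. Granule transcripts are therefore markers of immature neutrophils, while cells in the circulation chiefly carry receptors for chemoattractants and inflammatory mediators. Classical monocytes are a separate branch from a shared granulocyte and monocyte progenitor, depend on CCR2 to leave the marrow and on CSF1 receptor signals to survive, and share lysozyme and part of the phagocyte machinery with neutrophils.

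The groups were far apart. Of 14462 genes tested, 5499 (38.0%) were called, which means that edgeR's adjusted p stayed below 0.05 while the log2 fold change exceeded 1.5 in size. In neutrophils 2178 genes (15.1%) were higher and 3321 (23.0%) lower than in monocytes, and 7334 genes (50.7%) had no overlap between the 4 neutrophil and the 4 monocyte libraries in depth-scaled counts. Fold changes are given as neutrophils against monocytes on the log2 scale, after TMM normalization, which scales the libraries so that most genes do not change. Levels are given as RPKM, reads scaled by transcript length and library depth, in replicates 1 to 4. The choice of scale mattered. The log2 ratio of mean RPKM was lower than the TMM fold change by a nearly constant amount, with a median difference of -0.72 over 4683 genes. Neutrophils were higher in 39.6% of the calls with TMM and in 22.6% when libraries were scaled by their totals alone, with 1325 genes higher and 4544 lower. With limma on log2(RPKM + 0.1), 21.3% of the calls were higher in neutrophils. Among the named genes, Mki67, Alas2, Tgfbi and Emb changed sign between TMM and library totals, and none of them was called on either scale. In bulk RNA of this kind, fewer cells of a type and less RNA per cell cannot be told apart.

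Libraries of the same group were not alike, and part of that difference followed Xist, the RNA of the inactive X chromosome. Xist was at 7.35 and 6.31 RPKM in neutrophil replicates 3 and 4 and at 15.3 and 18.7 RPKM in monocyte replicates 1 and 2, but at most 0.0272 RPKM in the other four libraries, where the Y-linked gene Eif2s3y was at 4.29 to 5.77 RPKM. Each group thus held 2 libraries of each kind. Xist and Eif2s3y were chosen after their values were seen. For the 3 animals whose number stands in the titles of both a neutrophil and a monocyte library, the Xist levels of the pair disagreed, so those titles were not used to pair samples in the main fit. Whether a title or a library label is wrong there cannot be told apart, and values by replicate follow the labels. Hemoglobin followed the same split. Hbb-bs was at 233 and 256 RPKM in the Xist-high neutrophil libraries against 3.11 and 29 RPKM in the others, and at 223 and 107 RPKM in the Xist-high monocyte libraries against 1.64 and 9.2 RPKM. Tests restricted to the 2 Xist-high libraries of each group called 4014 genes, and tests restricted to the 2 Xist-low libraries called 6181, of which 3542 and 4655 were among the 5499.

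**Figure D1:**
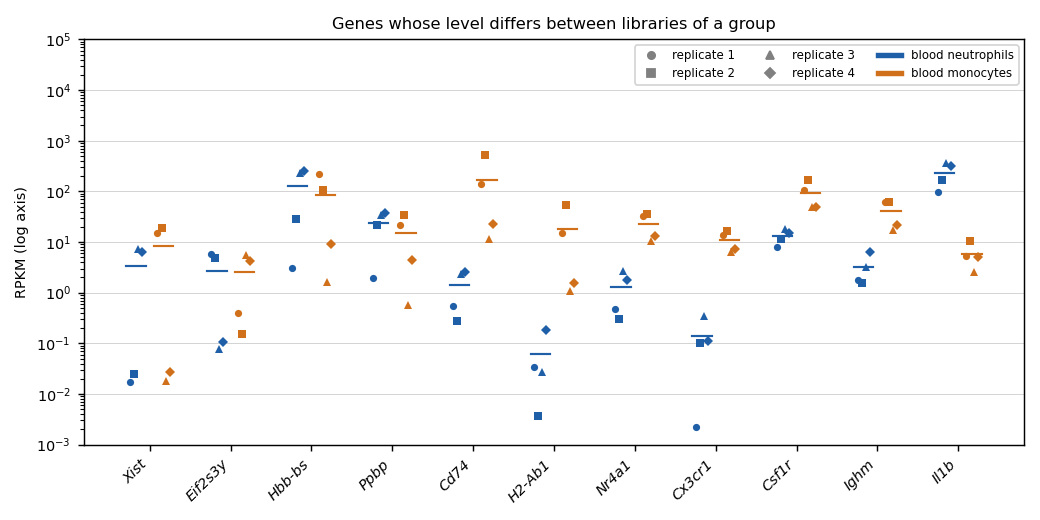
RPKM on a log axis of 11 genes in each of the 4 blood neutrophil (blue) and 4 blood monocyte (orange) libraries of tumor-bearing mice, with marker shapes for replicates and bars for group means. Xist and Hbb-bs are high in neutrophil replicates 3 and 4 and in monocyte replicates 1 and 2, and Cd74 is higher in monocyte replicates 1 and 2 (138 and 512) than in 3 and 4 (11.6 and 22.2).

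The sorting antigens were checked first, because they defined the groups and are not findings. Ly6g, the neutrophil antigen of the gate, was at 38.6, 39.3, 13.9 and 22.3 RPKM in neutrophils and at most 0.957 RPKM in monocytes. Itgam, which encodes CD11b, was present in both, at 110 to 144 RPKM in neutrophils and 57.1 to 71.4 RPKM in monocytes, as was Ptprc, which encodes CD45. Epcam did not exceed 0.0721 RPKM. The Ly6C genes did not separate the groups on the fitted scale. Ly6c2 was at 1.88 to 3.27 RPKM in neutrophils and 3.77 to 9.69 RPKM in monocytes, with a log2 fold change of -0.74 (SE 0.32, adjusted p = 0.0763), and its near-identical copy Ly6c1 stayed at 1.45 to 1.52 times Ly6c2 in all 8 libraries, so reads of both may have been divided between them. Erythroid markers were the most abundant of those of other cell types, with 12 to 1091 RPKM in sum over the 8 libraries, and platelet markers summed to 4.72 to 46.2 RPKM in neutrophils and 2.41 to 40.5 RPKM in monocytes. The 10 markers of natural killer cells summed to at most 0.807 RPKM in 7 libraries and to 36.7 RPKM in monocyte replicate 3, where Ncr1 was at 3.8 RPKM. The 10 colon epithelial markers summed to 0.653 to 1.55 RPKM. The 12 B-cell markers summed to 2.37 to 7.3 RPKM in neutrophils and 18.2 to 66 RPKM in monocytes, through Ighm, while Ms4a1 did not exceed 0.0905 RPKM.

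Specific granule genes were carried by both fractions, at higher levels in neutrophils for most of them. The promoters of 4 of them are shown because these genes carry the comparison of granule transcripts and because C/EBP factors, which bind near granule genes, have a short recognizable motif. Each line gives the 250 bases before the start of transcription, 5′ to 3′ on the gene's strand, from RefSeq on GRCm38.p6. Capitals mark matches to TTGCNNAA on either strand, a C/EBP half-site pair.

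Ngp (chr9:110419558-110419807, plus strand): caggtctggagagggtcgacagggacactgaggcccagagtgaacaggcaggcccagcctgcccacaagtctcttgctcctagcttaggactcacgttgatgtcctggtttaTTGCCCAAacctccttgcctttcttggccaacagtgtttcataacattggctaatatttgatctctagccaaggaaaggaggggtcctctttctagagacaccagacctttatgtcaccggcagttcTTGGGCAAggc
Ltf (chr9:111019042-111019291, plus strand): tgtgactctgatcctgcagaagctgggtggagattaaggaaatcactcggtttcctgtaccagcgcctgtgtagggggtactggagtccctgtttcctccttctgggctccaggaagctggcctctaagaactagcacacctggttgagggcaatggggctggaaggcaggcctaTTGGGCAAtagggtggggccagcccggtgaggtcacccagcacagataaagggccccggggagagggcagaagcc
Camp (chr9:109849457-109849706, minus strand): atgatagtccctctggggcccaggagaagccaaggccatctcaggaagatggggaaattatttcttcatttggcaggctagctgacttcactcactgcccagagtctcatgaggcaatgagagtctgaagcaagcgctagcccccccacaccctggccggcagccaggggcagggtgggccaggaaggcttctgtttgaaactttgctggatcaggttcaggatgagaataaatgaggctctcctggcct
Lcn2 (chr2:32387740-32387989, minus strand): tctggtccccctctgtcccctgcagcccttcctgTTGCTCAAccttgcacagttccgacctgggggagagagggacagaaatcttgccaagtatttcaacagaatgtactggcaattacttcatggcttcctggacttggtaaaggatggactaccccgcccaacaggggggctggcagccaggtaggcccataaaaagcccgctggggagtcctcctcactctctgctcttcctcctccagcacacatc

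The motif occurred 2 times in the Ngp window, 138 and 11 bases before the start, 75 bases before the start of Ltf, 216 bases before that of Lcn2 and not in the Camp window. These are RefSeq starts. The start of Ngp in the GENCODE annotation lies inside its window, and the match 11 bases before the RefSeq start lies after it. Over windows of 300 bases, which include 50 bases after the start, the motif was in 5 of 11 windows of the specific granule list and 4 of 6 of the gelatinase granule list, against 8.77% of 11771 windows of the genes tested and 10.8% of all 32851 promoter windows. The gelatinase granule list, here and below, also holds secreted proteins of neutrophils. For genes called higher in neutrophils by more than 4 on the log2 scale it was in 14.2% of the windows, and for those called lower by more than 4 it was in 9.63%. For the mature neutrophil list it was in 3 of 23 windows and for the classical monocyte list in 1 of 23. Motifs of PU.1, IRF, AP1 and KLF factors were searched in the same windows. In the specific granule list PU.1 and KLF motifs were each in 2 of 11 windows, against 3.57% and 3.82% for the genes tested. IRF and AP1 motifs were in 0 of 11. For genes called higher by more than 4, the AP1 motif was in 10.2% of the windows, against 5.36% for the genes tested.

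Of the 12 specific granule genes, 11 were tested. Of these, 9 were higher in neutrophils (15.1% over all genes tested), 1 was lower (23.0%) and 1 was not called, with a median log2 fold change of 3.30 against -0.12 over all genes tested. The shares of 15.1% and 23.0% are the background for the counts of every list that follows. Ngp (ENSMUSG00000032484, chromosome 9 from 110419747 to 110423012 of mm10), the neutrophilic granule protein, was at 456, 270, 135 and 271 RPKM in neutrophils and at 63, 22.6, 33.1 and 50 RPKM in monocytes. The groups did not overlap, but Ngp was well above 10 RPKM in every monocyte library. Its log2 fold change was 3.47 (SE 0.39, adjusted p = 5.53e-05). Lcn2, which encodes the iron-scavenging lipocalin 2, was at 599, 396, 188 and 274 RPKM in neutrophils and at 12.9, 3.78, 27.9 and 25.1 RPKM in monocytes, a log2 fold change of 5.07 (SE 0.62). Ltf, which encodes lactoferrin, was at 30.3, 11.4, 21.1 and 33.8 RPKM in neutrophils and at 4.95, 2.92, 2.64 and 5.9 RPKM in monocytes (log2 fold change 3.30, SE 0.40). For both genes the lowest neutrophil library stayed above the highest monocyte library. Camp, which encodes the antimicrobial cathelicidin, was at 20.8, 5.79, 8.6 and 30.1 RPKM in neutrophils and at 9.76, 0.376, 3.97 and 6.12 RPKM in monocytes. These groups overlapped, since monocyte replicate 1 was above neutrophil replicates 2 and 3. The call (log2 fold change 2.46, SE 0.79, adjusted p = 0.0234) was lost without monocyte replicate 3 or neutrophil replicate 4, with library totals in place of TMM, and within the Xist-high libraries.

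Hp, which encodes haptoglobin, was the most even of the specific granule genes called higher, at 117, 107, 138 and 116 RPKM in neutrophils and 55.4, 37.9, 39.3 and 35.1 RPKM in monocytes (log2 fold change 2.26, SE 0.19). Mmp8, the neutrophil collagenase, was at 904 and 833 RPKM in neutrophil replicates 1 and 2 and at 287 and 272 RPKM in replicates 3 and 4, and its monocyte level was 21.2, 16.4, 78.7 and 58.9 RPKM. In both groups the libraries with low Xist had the higher Mmp8 level. Cd177, a surface protein of neutrophils, ran from 38.2 to 100 RPKM in neutrophils and from 8.73 to 13.3 RPKM in monocytes (log2 fold change 3.14, SE 0.31). Pglyrp1, a peptidoglycan recognition protein of the granules, was at 126 to 261 RPKM against 5.83 to 8.67 RPKM. Olfm4, olfactomedin 4, was at 3.64 to 6.71 RPKM in neutrophils and did not exceed 0.152 RPKM in monocytes.

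Chil3 and the lysozyme genes, which monocytes are also known to express, had their higher values in monocytes. Chil3, a chitinase-like protein, was at 16.2, 7.02, 5.34 and 10.8 RPKM in neutrophils and at 44.1, 62.7, 286 and 143 RPKM in monocytes (log2 fold change -3.08, SE 0.60, adjusted p = 0.00159). Monocyte replicates 3 and 4, the Xist-low ones, held the high values. Lyz2, which encodes lysozyme M, was at 433 to 645 RPKM in neutrophils and 1884 to 3432 RPKM in monocytes, 473% of the neutrophil mean. Its log2 fold change of -1.5 (SE 0.25) sat at the fold threshold and was not called. The copy Lyz1, at 0.876 to 0.938 times Lyz2 in each library, had a log2 fold change of -1.52 and was called, so neither call separates them and reads of both may have been divided between them.

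**Figure D2:**
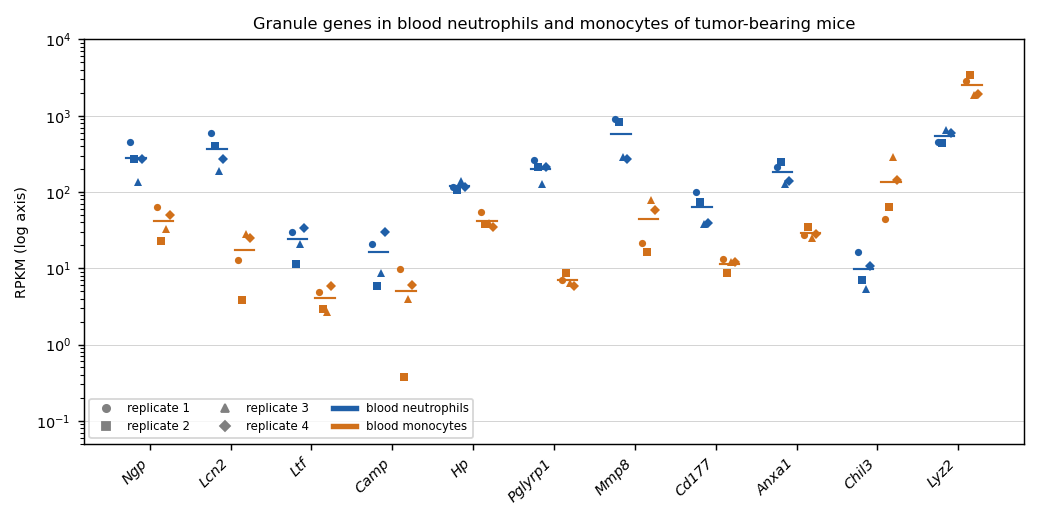
RPKM on a log axis of 11 granule genes in each blood neutrophil (blue) and blood monocyte (orange) library of tumor-bearing mice, with marker shapes for replicates 1 to 4 and bars for group means. Ngp in monocytes lies between 22.6 and 63, Camp overlaps between the groups, and all monocyte values of Chil3 and Lyz2 lie above the neutrophil values.

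Expressed as a share of the neutrophil level, the 9 specific granule genes with at least 10 RPKM in neutrophils had a median of 17% in monocytes, from 3.42% for Pglyrp1 to 473% for Lyz2. The median was 21.2%, 7.98%, 13.7% and 19.2% in monocyte replicates 1 to 4. The 5 genes of the gelatinase granule and secreted list at that level had a median of 0.659% and the 25 genes of mature neutrophils a median of 1.66%. The stefin A genes had a median of 0.0988%. These medians describe only the members at that level in neutrophils, so they carry no count over whole lists. Genes carried by both fractions, with at least 10 RPKM in all 8 libraries, were 4 of 12 for specific granules (Ngp, Hp, Mmp8 and Lyz2), 1 of 7 for gelatinase granules (Anxa1), 4 of 25 for mature neutrophils (Csf3r, S100a8, Pla2g7 and Gda) and 4 of 26 for classical monocytes (Mpeg1, Tgfbi, Emb and Lgals3). No azurophil granule or granulocyte precursor gene reached that level in all 8. At a minimum of 5 RPKM, the specific granule count was 7 of 12, and at 20 RPKM it was 3 of 12.

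**Figure D3:**
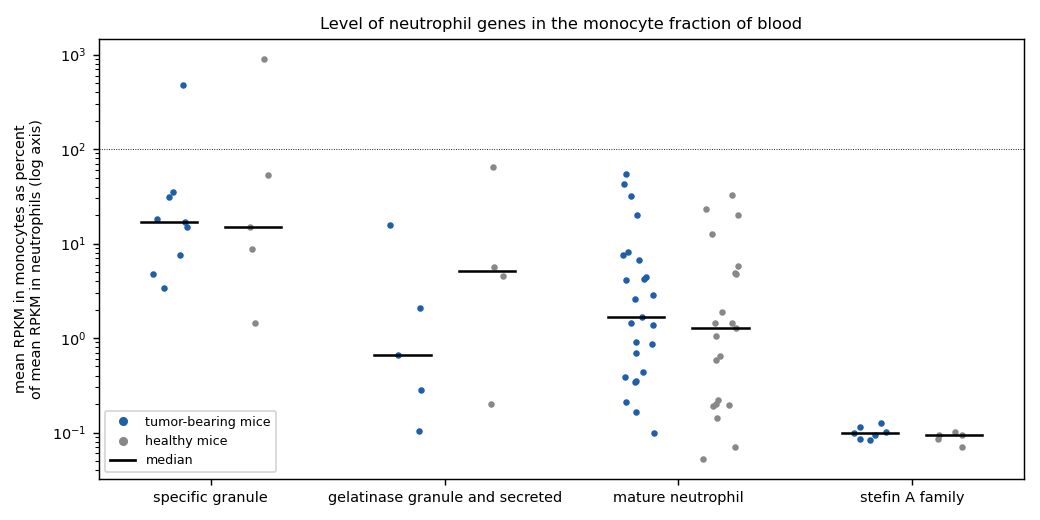
Mean RPKM in blood monocytes as a percentage of mean RPKM in blood neutrophils (log axis), 1 point per gene with at least 10 RPKM in the neutrophils, for tumor-bearing (blue) and healthy (grey) mice, with medians as bars and a dotted line at equal levels. In tumor-bearing mice the medians are 17% for specific granule genes, 0.659% for gelatinase granule and secreted genes, 1.66% for mature neutrophil genes and 0.0988% for stefins, and in healthy mice 15%, 5.07%, 1.28% and 0.0942%. These medians do not cover the same genes, because each state kept only genes at that level in its own neutrophils. Specific granule genes were 9 in tumor-bearing and 5 in healthy mice, and gelatinase granule genes 5 and 4.

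Azurophil granule genes were close to the detection limit in both fractions, and of 5 tested 1 was called higher and 2 lower in neutrophils. Elane, which encodes neutrophil elastase, was at 0 in all 4 neutrophil libraries and at 1.6, 0.651, 2.4 and 2.54 RPKM in monocytes. With 3 counts as the floor of each neutrophil library, this was at least 20.9-fold lower in neutrophils (adjusted p = 0.000312). Prtn3, proteinase 3, was at 0.026 to 0.21 RPKM in neutrophils and 0.159 to 1.52 RPKM in monocytes (log2 fold change -2.97, SE 0.86, adjusted p = 0.0145). The groups overlapped for Prtn3, and its call was lost within the Xist-high libraries. Mpo, myeloperoxidase, was at most 0.106 RPKM in neutrophils and at 0.133, 0.129, 0.214 and 1.02 RPKM in monocytes, which did not pass (log2 fold change -3.06, SE 1.34, adjusted p = 0.0784). Mpo was called lower by limma-voom (log2 fold change -4.34, adjusted p = 0.00911). By edgeR it was called lower with library totals, within the Xist-high libraries and without neutrophil replicate 1. Ctsg, cathepsin G, had too few counts to be tested. Serpinb1a, an inhibitor of these proteases, was the 1 list member called higher in neutrophils, at 1.56 to 5.69 against 0.232 to 1.84 RPKM, a call lost within the Xist-high libraries.

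Genes of granulocyte precursors were low and split. Of 13 tested, 4 were higher and 2 lower in neutrophils, against 15.1% and 23.0% of all genes tested, with a median log2 fold change of 0.66. Kit, the stem cell factor receptor, was at 1.14, 2.59, 0.04 and 0.277 RPKM in neutrophils and did not exceed 0.0511 RPKM in monocytes (log2 fold change 6.16, SE 1.2). The neutrophil range was wide, with the high values in the Xist-low libraries. Cd63, a membrane protein of azurophil granules, was at 1.73 to 3.68 RPKM against at most 0.576 RPKM, and Orm1, an acute phase protein made by precursors, was at 2.98 to 4.5 against 1.22 to 1.76 RPKM. Cebpe, the factor required for specific granules, did not exceed 1.12 RPKM in any library and did not pass (log2 fold change 0.66, SE 0.98, adjusted p = 0.601). Within the Xist-low libraries Cebpe was called higher in neutrophils (log2 fold change 2.72). Flt3, the receptor of progenitors and of dendritic cell precursors, was at most 0.0176 RPKM in neutrophils and at 1.07, 0.39, 1.82 and 1.25 RPKM in monocytes (log2 fold change -5.63, SE 0.57). Cebpa, a factor of myeloid progenitors, was at most 0.276 RPKM in neutrophils and at 4.48, 1.89, 2.07 and 1.24 RPKM in monocytes.

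Cell cycle genes were not raised in neutrophils. Of 24 tested, none was higher and 5 were lower, a share close to the 23.0% of all genes tested, with a median log2 fold change of -0.99. Mki67, a marker of cycling cells, was at 1.71 to 2.77 RPKM in neutrophils and 2.2 to 4.5 RPKM in monocytes, and the sign of its fold change depended on the scale (0.25 with TMM and -0.38 with library totals). Top2a, topoisomerase II alpha, did not exceed 0.212 RPKM in neutrophils and was at 0.489, 0.145, 0.549 and 0.534 RPKM in monocytes, without passing (adjusted p = 0.0813). Top2a was called lower within the Xist-low libraries (log2 fold change -2.24) and with library totals (-1.97). Tk1, thymidine kinase, was at 0.108 to 0.279 against 1.22 to 1.42 RPKM (log2 fold change -2.17, SE 0.37). Within the Xist-high libraries 1 list member was called lower, within the Xist-low libraries 14 were, and with library totals 8 were.

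Genes of the gelatinase granule list, which also holds secreted proteins such as Retnlg, separated the groups much more sharply than specific granule genes. Of 6 tested, 5 were higher in neutrophils and none lower, with a median log2 fold change of 7.14. Mmp9, gelatinase B, was at 127, 116, 89.2 and 113 RPKM in neutrophils and did not exceed 0.608 RPKM in monocytes (log2 fold change 9.21, SE 1.12). Mmp25, a membrane-bound metalloproteinase of neutrophils, was at 16.2 to 29 RPKM against 0.045 to 0.318 RPKM, and Adam8, a membrane metalloproteinase, at 32.4 to 49.3 against 0.566 to 1.14 RPKM. Retnlg, a resistin-like cytokine of neutrophils, was at 2374, 2073, 2519 and 1270 RPKM in neutrophils and at 1.38, 0.0378, 1.13 and 6.01 RPKM in monocytes. Its relatives Retnla and Retnlb were at 0.26 to 0.3 and 0.104 to 0.106 times its level in the neutrophil libraries, so their reads may have come in part from Retnlg. Anxa1, which encodes the anti-inflammatory annexin A1, was called with the smallest fold change of the 5, at 129 to 250 RPKM in neutrophils and 24.9 to 34.9 RPKM in monocytes (log2 fold change 3.36, SE 0.23). The member that was not called was Slc11a1, a metal transporter of phagosomes named here after its values were seen, at 4.17 to 6.57 against 2.39 to 5.26 RPKM (log2 fold change 1.31, SE 0.31).

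All 25 genes of mature neutrophils were higher in neutrophils, with a median log2 fold change of 6.64 and no overlap, and 23 of them were called with library totals in place of TMM. Cxcr2, the receptor for CXC chemokines that guides neutrophils out of the marrow, was at 506, 514, 623 and 471 RPKM in neutrophils and at 0.669, 0.0865, 2.9 and 3.87 RPKM in monocytes (log2 fold change 8.84, SE 1.07). Csf3r, the receptor for granulocyte colony-stimulating factor, was at 173 to 300 RPKM and at 14.2 to 20.4 RPKM (log2 fold change 4.46, SE 0.25). Thus monocytes carried Csf3r and hardly any Cxcr2. Mxd1, a MYC antagonist of terminal differentiation, was at 122 to 265 against 1.07 to 4.18 RPKM. The receptors Il1r2, Fpr1, Trem1 and Clec4d, for interleukin 1, formyl peptides, an amplifier of inflammation and fungal sugars, had log2 fold changes of 5.80, 6.89, 5.35 and 6.64. Asprv1, a protease, was at 0 in 3 monocyte libraries and at 0.131 RPKM in replicate 4, against 7.83 to 26.5 RPKM in neutrophils. Pla2g7, which breaks down platelet-activating factor, and Gda, guanine deaminase, were members that monocytes also carried, with log2 fold changes of 1.61 (SE 0.23) and 2.35 (SE 0.25). Pla2g7 was no longer called with library totals in place of TMM or without neutrophil replicate 3.

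The calgranulins S100a8 and S100a9, which form calprotectin, were the most abundant nuclear transcripts of the neutrophils. S100a8 was at 4798, 5096, 14922 and 3988 RPKM and S100a9 at 9782, 10369, 1568 and 9264 RPKM. In the pooled replicate 3 the order of the 2 genes was turned, with 9.52 times as much S100a8 as S100a9. In monocytes S100a8 was at 31, 49.4, 68.3 and 49.9 RPKM and S100a9 at 69.3, 7.97, 99.5 and 102 RPKM, and here it was replicate 2 that had more S100a8. The log2 fold changes were 7.92 (SE 0.59) and 7.49 (SE 0.90). S100a6 and S100a11 were also higher in neutrophils, with log2 fold changes of 3.29 and 3.79, while S100a4 and S100a10 were lower, at -6.67 and -6.00. S100a4 did not exceed 0.935 RPKM in neutrophils and was at 33.1 to 81.3 RPKM in monocytes.

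All 8 stefin A genes, inhibitors of cysteine proteases that form a cluster of near-identical copies, were higher in neutrophils, with a median log2 fold change of 10.42. Stfa2l1 was at 498, 354, 995 and 289 RPKM in neutrophils and at 1.39, 0, 0.19 and 0.526 RPKM in monocytes, and Stfa2 was at 0.683 to 0.734 times Stfa2l1 in the neutrophil libraries. The division of reads among these copies is uncertain. Prok2, which encodes the chemoattractant peptide prokineticin 2, also known as Bv8, was in none of the lists. It was at 15.1, 17.7, 8.28 and 23.5 RPKM in neutrophils and at most 0.0144 RPKM in monocytes (log2 fold change 12.59, SE 0.67, a value that depends on the prior count because monocytes were near 0). Prok2 overlaps Gm26748 on the other strand. Steap4, a metalloreductase, was at 47.3 to 81.6 RPKM against at most 0.144 RPKM.

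Classical monocyte genes showed the reverse. Of 26 tested, 20 were lower in neutrophils and 1 was higher, with a median log2 fold change of -5.22. Ccr2, the receptor that monocytes need to leave the marrow, was at 0.0766, 0.0361, 0.343 and 0.213 RPKM in neutrophils and at 108, 97.5, 95.1 and 89 RPKM in monocytes (log2 fold change -8.42, SE 0.72). F13a1, coagulation factor XIII, was at 81.3 to 85.8 RPKM in monocytes and at most 0.379 RPKM in neutrophils. The monocyte libraries were close to each other for both genes. The matrix genes Fn1, fibronectin, and Vcan, versican, had log2 fold changes of -10.43 (SE 0.46) and -9.21 (SE 0.56), with Vcan at 21, 35.9, 48.3 and 54.1 RPKM in monocytes. Ms4a8a, a membrane protein of the MS4A family, was at 13.8, 26.3, 20.2 and 10.4 RPKM in monocytes and at most 0.0163 RPKM in neutrophils (log2 fold change -9.85, SE 0.50). Csf1r, the receptor for colony-stimulating factor 1, was less one-sided, at 8.08, 11.6, 18.3 and 15 RPKM in neutrophils and 106, 167, 48.9 and 50.3 RPKM in monocytes (log2 fold change -2.06, SE 0.43).

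Monocyte genes that neutrophils carried included Mpeg1, a pore-forming protein of phagocytes, at 12 to 22.9 RPKM in neutrophils and 113 to 168 RPKM in monocytes. Tgfbi, a matrix protein induced by TGF-beta, was at 54.5 to 63 RPKM in neutrophils and 66.3 to 105 RPKM in monocytes, and Emb, embigin, at 51.9 to 63.9 and 59.6 to 70.6 RPKM. Lgals3, galectin 3, was at 10.4 to 15.3 and 14.7 to 39.7 RPKM. None of these 3 was called, and for Tgfbi and Emb the direction depended on the scale. Cd14, the co-receptor for lipopolysaccharide and a classical monocyte marker in people, was higher in neutrophils, at 78.4, 106, 112 and 166 RPKM against 35, 18.1, 12 and 9.86 RPKM in monocytes (log2 fold change 3.40, SE 0.41). The groups did not overlap, and the 1 call against the list's direction was made in each of the 8 fits that left out 1 library.

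Of 13 nonclassical monocyte genes tested, 6 were lower and 2 higher in neutrophils, with a median of -1.25. The 2 higher ones were Itgax, which encodes CD11c, and Dusp16, a phosphatase, with log2 fold changes of 2.50 and 2.42. Several MHC class II and nonclassical monocyte genes differed between the Xist-high and Xist-low monocyte libraries, while Spn, which encodes CD43, and Dusp16 overlapped between them. Cd74, the invariant chain of MHC class II, was at 138, 512, 11.6 and 22.2 RPKM in monocytes, and H2-Ab1 at 15.4, 55, 1.09 and 1.56 RPKM, although the gate excluded cells with surface MHCII. Neutrophils did not exceed 2.58 RPKM of Cd74 or 0.182 RPKM of H2-Ab1. Of 13 genes of the MHC class II and dendritic cell list, 8 were lower in neutrophils and 1 higher, with a median of -5.47, and 8 were called lower in the Xist-high and in the Xist-low libraries alone. Nr4a1, the factor on which nonclassical monocytes depend, was at 32.9 and 35.6 RPKM in monocyte replicates 1 and 2 and at 10.4 and 13.4 RPKM in replicates 3 and 4, and Cx3cr1, the fractalkine receptor, at 13.8 and 16.3 against 6.22 and 7.21 RPKM. The same 2 libraries had the higher hemoglobin and Ighm levels, and the part of other cells in these differences was not tested.

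Of 35 transcription factors tested, 9 were higher and 15 lower in neutrophils, against 15.1% and 23.0% of all genes. Irf8, which directs progenitors towards monocytes, was at most 0.0482 RPKM in neutrophils and at 12.1, 11.5, 4.01 and 4.66 RPKM in monocytes (log2 fold change -7.92, SE 0.77). Klf4, a factor of monocytes and macrophages, had a log2 fold change of -4.43, and Irf4, a factor of dendritic cells and lymphocytes, one of -6.49. Cebpd, Klf2 and Junb were higher in neutrophils, with log2 fold changes of 3.26, 2.21 and 2.68. Cebpd was at 11, 16.2, 16.6 and 16.4 RPKM in neutrophils and at 2.14 to 2.79 RPKM in monocytes.

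Receptors for chemoattractants were mostly higher in neutrophils, 12 of 21 tested against 3 lower, with a median of 2.46. C5ar1, the receptor for the complement fragment C5a, was at 93.5, 87.2, 120 and 115 RPKM in neutrophils and 3.47, 2.4, 5.73 and 2.78 RPKM in monocytes. Cxcr4, the receptor that holds cells in the marrow and marks aged neutrophils, was at 12.3, 21.4, 31.7 and 25.5 RPKM against 4.63, 12.3, 6.9 and 3.52 RPKM (log2 fold change 2.46, SE 0.44). Among cytokines 12 of 28 were higher and 6 lower in neutrophils. Il1b, interleukin 1 beta, was at 98, 170, 364 and 312 RPKM in neutrophils and 2.51 to 10.6 RPKM in monocytes (log2 fold change 6.08, SE 0.60), and Cxcl2, a ligand of Cxcr2, at 10.5, 7.57, 35.3 and 26.6 against 5.87, 0.574, 0.263 and 2.89 RPKM. In neutrophils both were higher in the Xist-high libraries, the 2 with more hemoglobin. Csf1, the ligand of the Csf1r that monocytes carry, was at 2.06 to 4.23 RPKM in neutrophils and at most 0.244 RPKM in monocytes.

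Of 25 adhesion genes, 11 were higher (15.1% of all genes) and 4 lower (23.0%) in neutrophils. Selplg, the ligand of P-selectin, was at 41.4 to 44.1 RPKM in neutrophils and 6.79 to 14.9 RPKM in monocytes. The integrin chains Itgb1 and Itgb7 were lower in neutrophils, with log2 fold changes of -2.65 and -1.89. Itga5 was at 9.99, 58.2, 5.93 and 6.47 RPKM in monocytes, and its call was lost without monocyte replicate 2, neutrophil replicate 1 or neutrophil replicate 4 (log2 fold changes of -0.76, -2.03 and -2.24), by limma-voom (-1.65) and within the Xist-low libraries (-0.82). Cd24a and Cd9 were higher in neutrophils, with log2 fold changes of 5.45 and 6.29.

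Of 30 lysosome and cathepsin genes, 17 were lower in neutrophils and 1 was higher, with a median of -1.86. Psap, prosaposin, was at 12.5 to 20.7 RPKM in neutrophils and at 275, 259, 95.3 and 91.1 RPKM in monocytes, and Ctss, cathepsin S, at 6.94 to 13.5 against 178 to 329 RPKM. Ctsd, cathepsin D, was the exception, at 66.3 to 118 against 21.2 to 51.3 RPKM, and was not called with library totals in place of TMM. Of 9 NADPH oxidase genes, 4 were higher and 1 lower in neutrophils. The lower one was Cybb, the catalytic subunit, at 22.5, 12.8, 12.5 and 15.9 RPKM in neutrophils and 128, 102, 105 and 103 RPKM in monocytes (log2 fold change -2.06, SE 0.20). The cytosolic subunit Ncf1 and the GTPase Rac2 were higher in neutrophils, with log2 fold changes of 1.85 and 2.39. With library totals 1 of the 4 stayed called.

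Of 26 glycolysis and glycogen genes, 14 were higher in neutrophils and none lower, with a median of 1.59. With library totals in place of TMM 9 were higher, against 9.16% of all genes tested. Slc2a3, a high-affinity glucose transporter, was at 30.2, 32.8, 47.4 and 35.7 RPKM in neutrophils and 0.156 to 0.288 RPKM in monocytes (log2 fold change 8.23, SE 0.35). Pygl, glycogen phosphorylase, was at 40.3 to 83.1 against 9.17 to 14.2 RPKM. Of 42 genes of the TCA cycle and respiratory chain, 12 were lower in neutrophils (23.0% over all genes tested) and none higher, with a median of -1.13. With library totals 26 were lower, against 31.4% of all genes tested. Atp5a1, a subunit of ATP synthase, was at 1.57 to 2.86 against 11.3 to 20.1 RPKM. The mitochondrial genome itself took 13.1% ± 3.39 (SD, n = 4) of the counts in neutrophils and 22% ± 3.44 (n = 4) in monocytes (two-sided exact permutation test, p = 0.0286, the smallest that 70 arrangements allow). Of 50 tested genes for cytoplasmic ribosomal proteins, 2 were higher and 21 lower, with a median of -1.29. Their counts were low. The 80 such genes in the data together took 0.0312% to 0.0404% of the counts in neutrophils and 0.106% to 0.197% in monocytes.

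**Figure D4:**
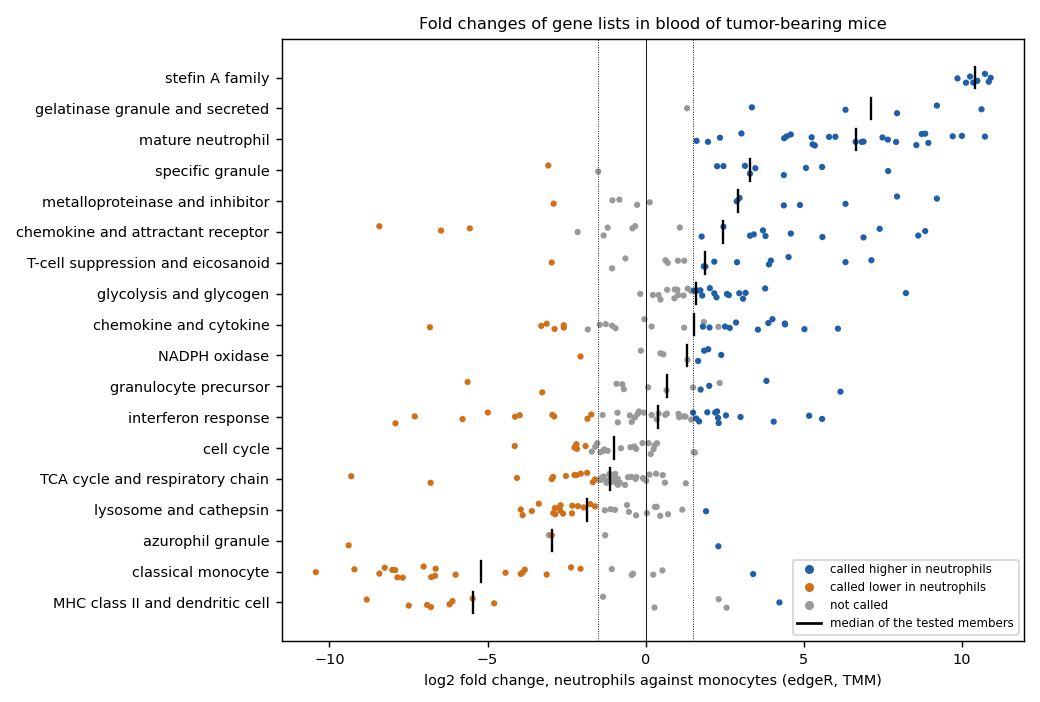
Log2 fold change, blood neutrophils against blood monocytes of tumor-bearing mice, of each tested member of 18 gene lists, colored by call, with the list median as a black bar and dotted lines at the fold threshold of 1.5. The stefin list, the gelatinase granule and secreted list and the mature neutrophil list lie farthest to the right (medians 10.42, 7.14 and 6.64), classical monocyte and MHC class II genes farthest to the left (-5.22 and -5.47).

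Interferon-induced genes did not move as a block. Of 42, 13 were higher and 10 lower in neutrophils, with a median of 0.38. Ifitm1, an antiviral membrane protein, and Slfn4, a schlafen protein of myeloid cells, were higher, at 62.5 to 79.7 against 2.78 to 4.11 RPKM and at 78.7 to 117 against 2.53 to 4.54 RPKM. Mx1, an antiviral GTPase, was at most 0.0221 RPKM in neutrophils and at 2.28 to 3.74 RPKM in monocytes, and Ifi44 followed it with a log2 fold change of -7.30. Of 16 genes tied to suppression of T cells and to eicosanoids, 9 were higher and 1 lower. Arg2, the mitochondrial arginase, was at 31.7 to 36.8 RPKM in neutrophils and at 0.938, 5.4, 1.6 and 1.77 RPKM in monocytes. Nos2, the inducible nitric oxide synthase, was at 2.62, 2.66, 0.373 and 0.726 RPKM in neutrophils, with the high values in the Xist-low libraries, and at most 0.0571 RPKM in monocytes. Entpd1, which encodes CD39, and Alox5, 5-lipoxygenase, had log2 fold changes of 3.96 and 6.32. Tgfb1, the TGF-beta 1 ligand, was lower in neutrophils, at 1 to 3.19 RPKM against 19.8, 22.4, 7.44 and 7.76 RPKM.

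Of the 10 most abundant nuclear protein-coding transcripts of each group, 3 were shared (Lyz2, Wfdc17 and the predicted gene Gm20594), and of the 50 most abundant, 22 (44% of each). B2m, the light chain of MHC class I, had a log2 fold change of 0.00 (SE 0.21) with TMM and of -0.61 with library totals, at 443 to 670 RPKM in neutrophils and 719 to 1169 RPKM in monocytes. Fcer1g and Tyrobp, the adaptors of activating receptors, overlapped between the groups, and Fcer1g was at 904 RPKM in neutrophil replicate 3 and 1000 RPKM in monocyte replicate 2 but at 195 to 362 RPKM in the other libraries. Some of the genes named above overlap another gene in the annotation, among them Prtn3 (Plppr3), Anxa1 (1500015L24Rik), Tk1 (Afmid), Csf1r (Hmgxb3), Fn1 (Apol7d), Cx3cr1 (Wdr48), Cebpd (Spidr), Junb (Prdx2), Il1b (Il1bos), Ncf1 (Gtf2ird2), Atp5a1 (Haus1), Arg2 (Vti1b) and B2m (Patl2). Whether the counting used strand was not given in the sources used here, so reads of such pairs may have been shared.

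The same contrast was made in healthy blood, to ask which differences between the cell types differed with the state of the mice. The healthy comparison shares no library with the one above. It tested 15033 genes and called 2510 higher and 3066 lower in neutrophils. Of the 2178 genes higher in neutrophils of tumor-bearing mice, 1570 (72.1%) were also called higher in healthy neutrophils, 62.5% of the 2510 healthy calls. Of the 3321 lower genes, 2232 (67.2%) were also called lower, 72.8% of the 3066 healthy calls. Directions were opposite for 5 genes. The difference between the 2 contrasts was tested over 16 libraries and called for 136 of 16817 genes (0.809%), 73 higher and 63 lower. The number depended on the tool, with 514 genes called by DESeq2 and 98 by limma-voom.

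Ngp was among them. In healthy mice it was at 8.43, 12, 3.31 and 7.7 RPKM in neutrophils and 0.0617, 0.0551, 0.0253 and 0.0195 RPKM in monocytes, and the difference between neutrophils and monocytes was smaller in tumor-bearing mice by 4.92 on the log2 scale (interaction -4.92, SE 0.62, adjusted p = 0.00164). The interaction was not called by limma-voom (adjusted p = 0.114). Its size depends on the prior count, because Ngp was near 0 in healthy monocytes. Lrg1, a glycoprotein of granules, also had a negative value, with an interaction of -5.18 (SE 0.93, adjusted p = 0.0168), and was at 2.09 to 10.7 RPKM in monocytes of tumor-bearing mice and at most 0.0849 RPKM in healthy ones, but it too was not called by limma-voom. The size of the Lrg1 interaction depends on the prior count for the same reason. For Camp, Lcn2, Ltf and S100a9 the interaction did not pass, with values of -5.73 (SE 2.06, adjusted p = 0.222), -1.76, 0.52 and -4.09. Cd177 and Ly6g went the other way, with interactions of 3.52 (SE 0.48) and 4.89 (SE 0.78). Ly6g is an antigen of the neutrophil gate, yet it was not called higher in healthy neutrophils. Of 5 sorting antigens tested in healthy blood, none was called higher in neutrophils and 2 were called lower. Over all 15033 genes tested there, 2510 were called higher and 3066 lower. Cd177 in healthy mice was at 3.85 to 9.79 RPKM in neutrophils and 8.89 to 19.2 RPKM in monocytes, ranges that overlapped, and by edgeR it was not called there (log2 fold change -0.35, adjusted p = 0.411). Cybb (2.35, SE 0.27), Adam19 (2.10, SE 0.27) and Anxa1 (1.96, SE 0.36) also had positive interactions. Healthy and tumor-bearing animals differed in strain, transgene and tamoxifen as well as in tumors, and these cannot be told apart.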

How the data were processed

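RNA of sorted blood neutrophils and monocytes (4 libraries each per state) was amplified, sequenced and aligned to mm10 with Bowtie2 by the authors, who deposited estimated counts per gene and RPKM values for 45706 genes. Of the nonzero counts, 99.6% were not whole, so they were rounded (the totals changed by at most 1043). Totals were 11737907 to 17914084 per library, and their number and the 4 replicates limit precision. Separate cultures or animals are known only from the titles.

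Genes passing filterByExpr were tested with edgeR 4.0.16 (robust quasi-likelihood, TMM) in R 4.3.3, with Benjamini-Hochberg adjustment. The main fit used the 8 libraries, and the interaction with state 16. The study's notes name limma, which was run as the alternative limma-voom (3.58.1), with DESeq2 1.42.0, other scalings and filters, limma on log2(RPKM + 1) and log2(RPKM + 0.1), a replicate block and each library left out. A block by the animal numbers in the titles was a further alternative to the main fit. Tests limited to Xist classes, the Xist block and library totals without TMM were chosen after seeing the data. On simulated data, 82.2% of genes changed by 2 on the log2 scale and 95.7% of those changed by 3 were called among 14462 genes. For the interaction the shares were lower, 22.9% at 2 and 65.3% at 3, among 16817 genes. The simulation changed only 50 genes of each size, as many up as down, against 5499 genes called in these data. Its spread between replicates was assumed, without a split by Xist. The shares in these data may therefore differ.

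Members and lists were chosen with earlier results of these data known. Genes named were the key members of each list, up to 4 called members per list and direction whose libraries did not overlap and whose log2 CPM averaged 3 or more, the 10 largest changes per direction under the same condition with an average of 5 or more, list members with at least 10 RPKM in all 8 libraries, the 10 most abundant nuclear protein-coding genes per group, and 5 interactions per direction. Some genes that met this rule are not reported here. Promoter sequences came from RefSeq (GRCm38.p6), gene positions from GENCODE M21.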

Additional observations from a re-analysis of the deposited data

Results flagged for a closer look

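Single libraries stood apart from the other three of their group in 20 of 328 groups screened with Dixon's test, where chance flags about 1 in 20. The number flagged is close to that share. In neutrophil replicate 3, the pool of 2 animals, S100a8 was at 14922 RPKM (others 3988 to 5096), S100a9 at 1568 (9264 to 10369), Wfdc17 at 4017 (638 to 1177), Fcer1g at 904 (226 to 284) and Lair1 at 2.76 (0.768 to 1.07). In the other neutrophil libraries, Cebpd was at 11 RPKM (16.2 to 16.6) and Il1r2 at 71.8 (26.6 to 32.7) in replicate 1, Fas at 7.74 (6.78 to 6.91) in replicate 2, and Lrg1 at 184 (39.8 to 56.3) in replicate 4.

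In monocyte replicate 1, Cybb was at 128 RPKM (102 to 105), S100a10 at 13.3 (5.26 to 5.68) and Itgb3 at 1.26 (0.58 to 0.651). In monocyte replicate 2, Itga5 was at 58.2 RPKM (5.93 to 9.99), Wfdc17 at 430 (85.8 to 139), Tmem173 at 22.8 (8.68 to 9.05), Fcgr4 at 9.89 (2 to 2.87) and Havcr2 at 0.919 (2.61 to 2.84). Ncr1 was at 3.8 RPKM in monocyte replicate 3 (0.0117 to 0.0675), and in replicate 4 Mpo was at 1.02 (0.129 to 0.214) and Cebpd at 2.14 (2.75 to 2.79).

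The neutrophil against monocyte difference was not the same in tumor-bearing and healthy mice for 15 named genes, by edgeR's test of the interaction on the log2 scale. It was larger towards neutrophils in tumor-bearing mice for Prok2 (7.96, adjusted p = 0.0423), Ggt1 (6.88, adjusted p = 0.049), Ly6g (4.89, adjusted p = 0.00879), Slc7a5 (4.66, adjusted p = 0.0298), Upp1 (4.50, adjusted p = 0.0122), Cd177 (3.52, adjusted p = 0.00276), Cybb (2.35, adjusted p = 0.000899), Adam19 (2.10, adjusted p = 0.00172) and Anxa1 (1.96, adjusted p = 0.0184). It was lower for Ppp1r9a (-5.28, adjusted p = 0.00289), Lrg1 (-5.18, adjusted p = 0.0168), Calhm2 (-5.01, adjusted p = 0.00155), Ngp (-4.92, adjusted p = 0.00164), Clec4a1 (-3.98, adjusted p = 0.0275) and Siglece (-1.54, adjusted p = 0.049). When libraries were left out singly, in 16 fits, the call was made in 1 for Siglece, 4 for Ggt1, 5 for Prok2, 9 for Slc7a5, 10 for Clec4a1 and all 16 for the other genes. Independently of that, limma-voom did not call Ngp, Clec4a1, Siglece, Ggt1, Slc7a5 or Lrg1.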

How the results depend on the processing

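Of the 5499 calls, the count was 2605 (1093 higher in neutrophils, 1512 lower) with at least 10 counts in every library, where fewer genes were tested, and 1406 (486 and 920) with limma on log2(RPKM + 1). Without the fold threshold it was 7407, with 3395 higher. Calls higher in neutrophils fell to 1325 with library totals without TMM and to 1077 with limma on log2(RPKM + 0.1). Leaving out each library gave 5431 to 5795 calls, 2145 to 2387 higher and 3183 to 3560 lower. The other alternatives stayed within 1.5 times, among them DESeq2 with 5676, limma-voom with 5769 and the Xist block with 5624. No called gene named here reversed.

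For the 136 interaction calls (73 higher, 63 lower), DESeq2 gave 514 (222 and 292), limma-voom 41 lower, and leaving out 1 library 39 to 152 (25 to 83 higher, 14 to 69 lower). The count fell by over 1.5 times without monocyte replicates 3 (59) or 4 (46) or neutrophil replicates 1 (59) or 2 (39) of tumor-bearing mice. It did so too without healthy monocyte replicates 1 (52), 2 (88), 3 (81) or 4 (64), or healthy neutrophil replicates 1 (74), 2 (87) or 3 (44). The cause was not tested.

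The labels give both groups the replicate numbers 1 to 4. With a replicate block the main count was 5211 (2096 higher, 3115 lower) and the interaction count 22 (14 and 8). Among the named genes the interactions of Clec4a1, Siglece, Anxa1, Ggt1, Slc7a5, Upp1 and Lrg1 and the main calls of Cd74, Cd79b and Itga5 were lost. Under the block edgeR gave log2 fold changes of -5.01 for Cd74 (adjusted p = 0.0597), -2.09 for Cd79b (adjusted p = 0.0504) and -1.55 for Itga5 (adjusted p = 0.0616). Deviations of same-numbered libraries correlated at -0.23, -0.13, -0.17 and -0.16 over 7802 genes, so the pairing by number was not used. A block by the animals named in the titles gave 4651 main calls (1925 higher, 2726 lower). Under it the calls of Cd74 (log2 fold change -3.31), Cd79b (-1.67), Itga5 (-0.89) and Lyz1 (-1.23) were lost. Depth limits genes such as Mpo and Ctsg, at few counts in neutrophils.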
